A study of Mus musculus with 12 samples.

Results

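The genes described here are 10 genes of the ATF4 stress response and of amino acid uptake, taken from the deposited count table by their symbol: Atf4, Ddit3, Asns, Trib3, Chac1, Slc7a5, Slc3a2, Slc38a1, Slc38a2 and Slc1a5. Each symbol matched 1 of the 39017 genes in the table, and all 10 passed the filter on low counts that left 19370 genes for testing. They were measured by RNA sequencing in 12 bulk mammary tumours, 3 in each of 4 groups, grown from 250000 NIC cells injected into the fourth mammary pad of FVB/N mice, females aged 8 to 12 weeks. NIC is a mouse ErbB2-positive breast cancer line without p66ShcA, the longest product of the adaptor gene Shc1. Tumours called p66Low came from these cells and tumours called p66High from cells engineered to overexpress p66ShcA at all times. Parental tumours came from the unselected cells, and aggressive tumours from populations taken back into culture after 2 serial passages in the fat pad. Each of the 4 groups therefore rests on 1 cell population, and the tumours hold host cells as well, so fewer cells of a type and less RNA per cell cannot be told apart. The titles of p66High parental replicates 1 and 2 share the number 173, and those of p66High aggressive replicates 1 and 2 the number 185, with L and R after it. The labels do not say whether such a pair came from 1 mouse.

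ATF4 is the transcription factor of the integrated stress response. Kinases that sense amino acid shortage, endoplasmic reticulum stress, viral RNA or loss of haem phosphorylate the initiation factor eIF2alpha, which lowers translation in general and raises translation of the Atf4 mRNA. ATF4 then binds C/EBP-ATF response elements in genes for amino acid synthesis and uptake, and it induces CHOP, the product of Ddit3, which takes part in cell death under lasting stress. Because ATF4 is controlled largely at translation, the level of its mRNA need not follow the level of its protein, which was not measured here.

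The 3 promoters below are shown because they are the members in which a script found the element. The motif searched was TGATGNAA on both strands, with its core TGATG, which lies inside it. Promoter sequences reach from 250 bases before to 50 bases after the start site and come from RefSeq on GRCm38.p6, where 7 members had an entry: Atf4, Ddit3, Asns, Trib3, Chac1, Slc3a2 and Slc38a2. The full motif lay in 3 of these 7 promoters and in 3.97% of all 32851 promoters of the same length, and the core in 3 of 7 and in 39.3%. In the sequences, printed 5′ to 3′ on the strand of the gene, capitals mark the match.
Asns, chr6:7693185-7693272, minus strand, motif at -23 from the start site: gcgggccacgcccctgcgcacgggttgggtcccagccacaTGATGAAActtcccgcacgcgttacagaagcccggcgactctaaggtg
Trib3, chr2:152344011-152344086, minus strand, motif on the opposite strand at 15: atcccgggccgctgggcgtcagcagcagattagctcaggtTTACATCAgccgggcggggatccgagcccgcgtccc
Chac1, chr2:119351009-119351096, plus strand, motif on the opposite strand at -193: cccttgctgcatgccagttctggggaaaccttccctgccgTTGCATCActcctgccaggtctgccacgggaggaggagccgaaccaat
The match is a description of these letters and not a measured binding site.

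Total counts lay between 17.4 M and 76.1 M per tumour, where M stands for 1000000 counts. Shc1 followed the labels, at 59.0 to 69.9 CPM (counts per 1000000, with library totals scaled by TMM) in the 6 p66Low tumours and 223 to 774 CPM in the 6 p66High tumours. The level of 774 CPM was that of p66High aggressive replicate 3, and the other p66High tumours reached at most 271 CPM. These counts are for the whole gene, so they do not separate p66ShcA from other Shc1 products or from Shc1 of host cells. The summed level of 8 epithelial and ErbB2 tumour markers was 2204 to 3306 CPM in all 12. The lymph-node-rich libraries, those of p66High parental replicate 3 and p66Low aggressive replicates 1 and 2, held 61.8 to 261 CPM of 10 lymph node stroma markers, against 1.38 to 9.35 CPM in the other 9. Between 0 and 8 of these 10 markers had no count in a tumour. Fits that omit these 3 keep 9 tumours and leave p66Low aggressive replicate 3 alone in its group, which is then assumed to vary like the other groups.

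Compared per length of annotated exons, the highest levels were those of Atf4 (51.0 CPM per kb, mean of 12 tumours), Asns (41.1 CPM per kb) and Slc38a2 (30.4 CPM per kb). Slc3a2 and Slc7a5 followed at 19.2 and 16.7 CPM per kb, Trib3 and Ddit3 at 10.8 and 9.44 CPM per kb, and Slc1a5 at 5.87 CPM per kb. Slc38a1 and Chac1 were low, at 0.936 and 0.757 CPM per kb. The span from the lowest to the highest tumour was 1.90-fold for Atf4 and 13.6-fold for Slc38a1.

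Members went in both directions. Differences between groups were tested with edgeR's quasi-likelihood test over all 12 tumours, with Benjamini-Hochberg adjustment over all 19370 genes and a threshold of 0.05. Between p66High and p66Low parental tumours 2 of 10 members were lower (Asns and Slc38a2) and none higher, where 4.1% of all genes tested were lower and 3.98% higher. Between p66High and p66Low aggressive tumours 3 were lower (Slc38a1, Asns and Slc1a5) and 1 higher (Slc7a5), against 12.1% and 8.92% of all genes. Selection of p66Low cells left 2 members higher (Slc38a1 and Asns) and 2 lower (Slc7a5 and Slc3a2), against 9.6% and 7.03% of all genes. Selection of p66High cells left 1 higher (Slc38a2) and none lower, against 3.11% and 2.82% of all genes.

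**Figure D1:**
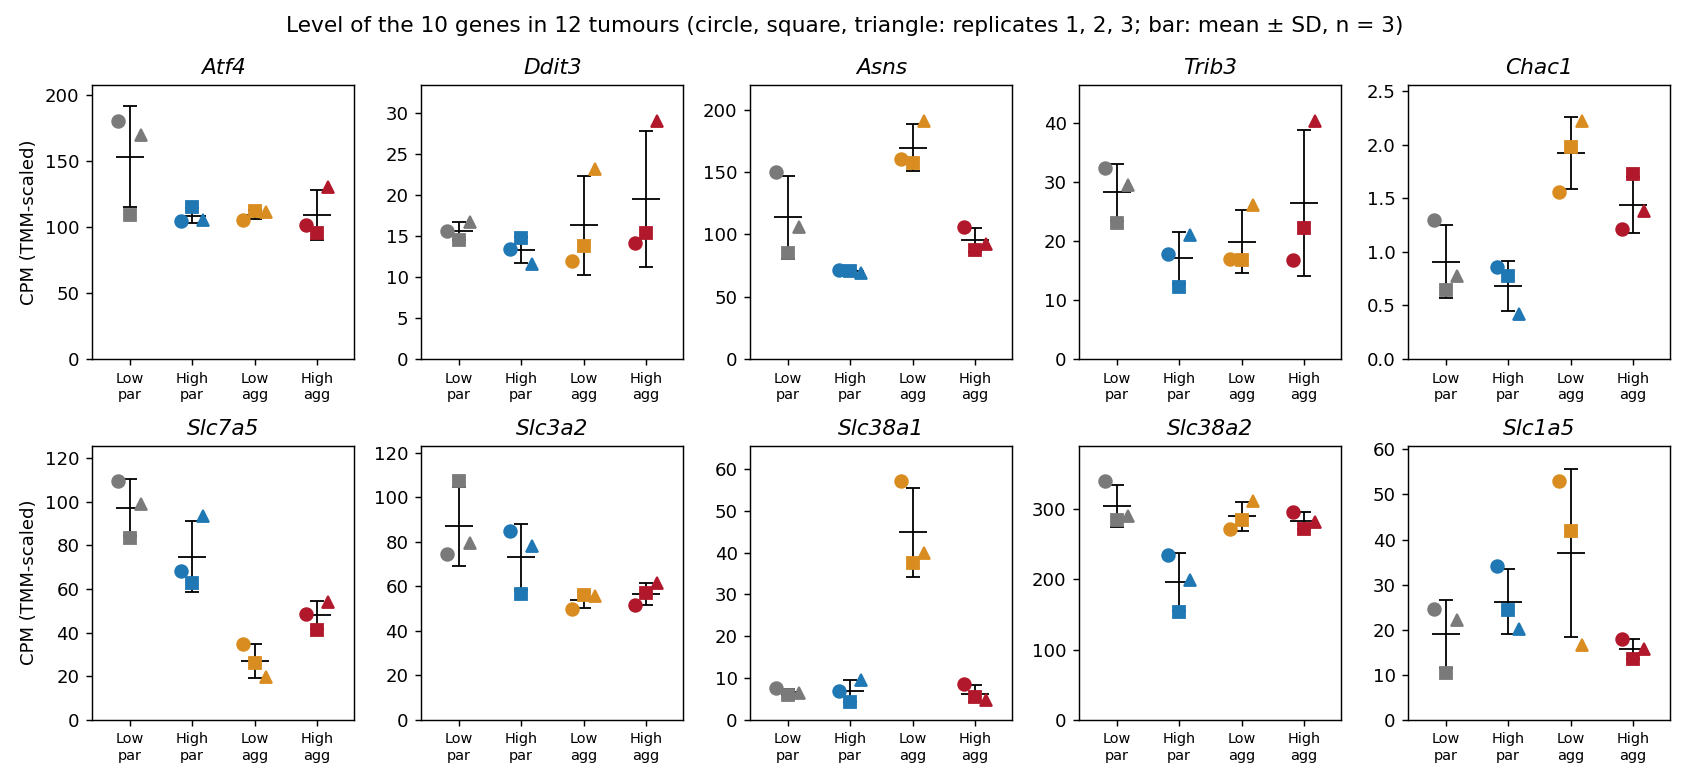
Level of each of the 10 genes in CPM (linear axis from 0) in 12 tumours by group, with circles, squares and triangles for replicates 1, 2 and 3 and bars for the mean ± SD (n = 3). Slc38a1 stands at 37.5 to 57.0 CPM in the p66Low aggressive tumours and at 4.19 to 9.58 CPM in the other 9, and Slc7a5 is lowest in the same group at 19.6 to 35.0 CPM.

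Unadjusted p-values were under 0.05 for 4, 4, 7 and 5 members in the same order. The largest of these were the p-values of Trib3, Slc1a5, Slc1a5 and Slc3a2. Smaller p-values were held by 20.46%, 20.79%, 27.04% and 21.53% of all genes tested. The shares of all genes under 0.05 are at least as large and are not given here. By the edgeR test, the largest of these member p-values was only 0.0101 between the aggressive groups and 0.0338 in p66Low selection. Tumours of 2 groups did not overlap for 3 members in p66High against p66Low parental tumours, 3 between the aggressive groups, 5 in p66Low selection and 5 in p66High selection. The same held for 29.9%, 38.2%, 32.8% and 32.6% of all genes tested. The median log2 difference of the members was -0.41, -0.02, -0.0032 and 0.22 in that order, beside -0.01, 0.02, -0.02 and -0.0021 for all genes. Each group of tumours is used in 2 of these comparisons, so they share samples.

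**Figure D2:**
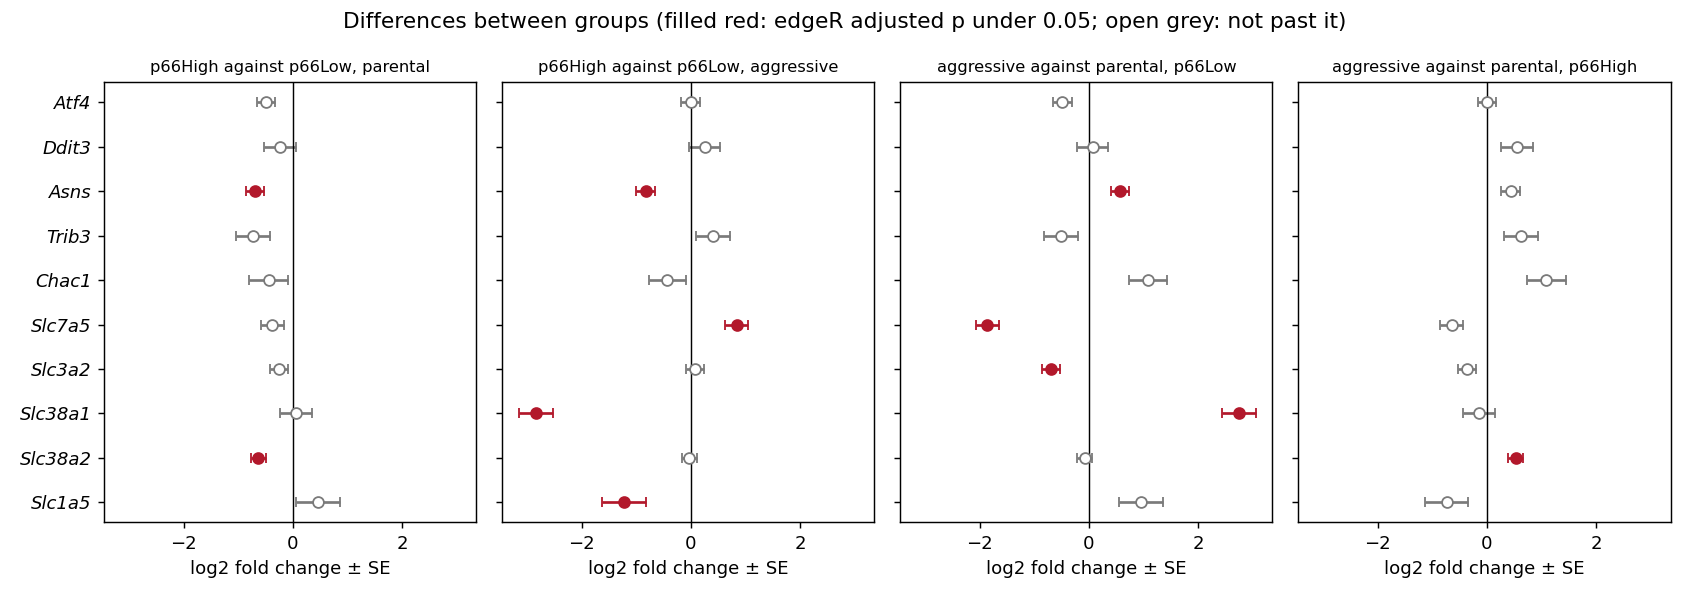
Log2 fold change ± SE of each gene in the 4 comparisons, from the fit of all 12 tumours, with filled red points past the threshold and open grey points not past it. Slc38a1 lies farthest from 0, at 2.75 in p66Low selection and -2.84 in p66High against p66Low aggressive tumours, while Atf4 and Ddit3 are open in all 4 panels.

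Atf4 (ENSMUSG00000042406, mm10 chromosome 15, 80255184 to 80257541, plus strand) encodes the regulator itself. In CPM it stood at 181, 109.5 and 169.7 CPM in p66Low parental tumours, 105, 115 and 106 CPM in p66High parental, 105, 112 and 111 CPM in p66Low aggressive, and 102, 95.3 and 130.5 CPM in p66High aggressive tumours. Replicates 1 and 3 of the p66Low parental group were above all other tumours, and replicate 2 of that group lay among them, so that every pair of groups overlapped. The log2 difference was -0.50 (SE 0.17, edgeR adjusted p = 0.0997) between p66High and p66Low parental tumours and -0.48 (SE 0.17, adjusted p = 0.072) in p66Low selection. It was -0.01 between p66High and p66Low aggressive tumours and 0.01 in p66High selection, with SE of 0.17 for both, so Atf4 passed in no comparison. Without p66Low parental replicate 2 the first 2 differences passed, at -0.69 (adjusted p = 0.00632) and -0.66 (adjusted p = 0.00805).

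Atf4 lies on chromosome 15, whose genes shifted together in both comparisons that involve p66Low parental tumours. The median log2 difference of its 572 tested coding genes was -0.41 between p66High and p66Low parental tumours, with 162 lower and 6 higher, beside 0.01 for all 14735 coding genes. In p66Low selection that median was -0.29, with 143 lower and 40 higher. Relative to the mean of 12 tumours, the chromosome 15 median was 0.37, 0.07 and 0.27 in the 3 p66Low parental tumours, which is the order of Atf4 in them, and -0.17 to 0.04 in the other 9. Asns, Trib3, Chac1, Slc7a5 and Slc1a5, which lie on other chromosomes, had the same order in the 3 p66Low parental tumours. Of the 32 tested coding genes within 1 Mb of Atf4, 8 were lower and none higher in p66High parental tumours (median -0.35), and 13 were lower and 1 higher in p66Low selection (median -0.32). Between the aggressive groups the chromosome median was -0.0026 (52 higher, 80 lower) and that of these 32 genes 0.18 (8 higher, 1 lower). In p66High selection they were 0.10 (35 higher, 4 lower) and 0.17 (2 higher, none lower). Atf4 stood at -0.01 and 0.01 in these 2 comparisons. The part of the chromosome 15 shift in the level of Atf4 was not tested.

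**Figure D3:**
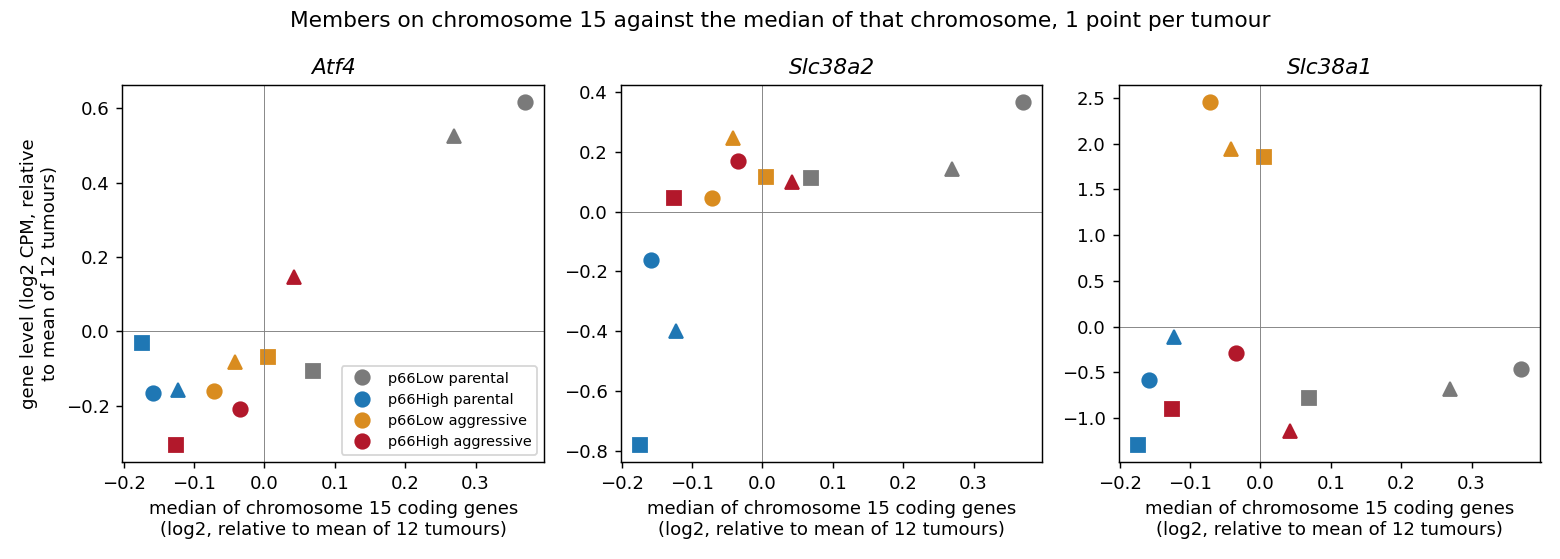
Log2 level of the 3 genes on chromosome 15 (y axis, relative to the mean of 12 tumours) against the median of the chromosome's coding genes in the same tumour (x axis, same scale), with 1 point per tumour, colours for groups, and circles, squares and triangles for replicates 1, 2 and 3. The p66Low parental replicates 1 and 3 sit at the upper right for Atf4, while the 3 p66Low aggressive tumours stand apart for Slc38a1 at chromosome medians of -0.07 to 0.01.

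The 3 coding genes of at least 10 CPM whose log2 level was most like that of Atf4 over the 12 tumours, among 9908 ranked, all lie on chromosome 15. They were Eif3d, a subunit of initiation factor eIF3 (Pearson r = 0.96), the RNA-binding protein gene Khdrbs3 (0.94) and the prolyl isomerase gene Fkbp11 (0.94). The points share libraries and groups, and without the 2 tumours farthest from the median of Atf4 these values were 0.69, 0.70 and 0.61.

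Ddit3 (ENSMUSG00000025408, chromosome 10, 127290774 to 127296288, plus strand) encodes CHOP. In CPM it stood at 15.6, 14.6 and 16.7 CPM in p66Low parental, 13.4, 14.8 and 11.7 CPM in p66High parental, 11.9, 13.7 and 23.2 CPM in p66Low aggressive, and 14.1, 15.4 and 29.1 CPM in p66High aggressive tumours. All pairs of groups overlapped, and the 2 highest tumours of the 12 were replicates 3 of the aggressive groups. Log2 differences were -0.24, 0.25, 0.07 and 0.56 in the order of the comparisons above, with SE of 0.29 for each and edgeR adjusted p-values of 0.282 to 0.910. Of the exonic bases of Ddit3, 68 overlap exons of Mars on the other strand, whose product charges tRNA with methionine, and 13 overlap the noncoding gene Gm4189. Reads in the bases shared with Mars and Gm4189 are uncertain, since no source used here gives the strand setting of the counting. A second coding gene model named Ddit3, on the same strand, shares 105 exonic bases and is not in the count table.

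Trib3 (ENSMUSG00000032715, chromosome 2, 152337422 to 152344032, minus strand) encodes a pseudokinase that is induced by ATF4 and CHOP and restrains them. It was at 32.4, 23.0 and 29.4 CPM in p66Low parental, 17.9, 12.3 and 21.02 CPM in p66High parental, 16.9, 16.7 and 26.0 CPM in p66Low aggressive, and 16.9, 22.2 and 40.4 CPM in those called p66High aggressive. The p66High parental tumours lay below all p66Low parental tumours, with a log2 difference of -0.72 (SE 0.31) that did not pass (edgeR adjusted p = 0.19). The other differences were 0.41, -0.51 and 0.63, with SE of 0.31 and adjusted p-values of 0.263 to 0.401, and their groups overlapped.

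In p66High aggressive replicate 3, Trib3 and Ddit3 both had their highest level of the 12 tumours. The same library had the highest summed level of 12 hypoxia response genes (4658 CPM, against 1123 to 3451 CPM in the other 11) and the lowest of 10 fibroblast markers (1537 CPM, against 2060 to 6519 CPM). Its endothelial sum was 77.9 CPM, the lowest of the 12, and its Shc1 level was 774 CPM, the highest of the 12. In p66Low aggressive replicate 3, the second in Ddit3, the hypoxia sum was 3369 CPM, the fibroblast sum 2060 CPM and the endothelial sum 97.9 CPM. Without p66High aggressive replicate 3 the aggressive p66High and p66Low tumours differed by a log2 value of -0.17 for Ddit3 and -0.05 for Trib3, and p66High selection gave 0.14 for Ddit3 and 0.18 for Trib3. The part of hypoxia, of the Shc1 level or of fewer host cells in these levels was not tested.

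Asns, which makes asparagine from aspartate and glutamine, was the ATF4 target that passed in the most comparisons. Asns (ENSMUSG00000029752, chromosome 6, 7675169 to 7693254, minus strand) stood at 150.4, 85.3 and 106 CPM in p66Low parental tumours and at 71.5, 71.0 and 69.1 CPM in p66High parental tumours. It stood at 160.1, 157 and 191 CPM in p66Low aggressive tumours and at 106, 87.4 and 92.2 CPM in those called p66High aggressive. The order of group means was therefore p66Low aggressive (169.5 CPM), p66Low parental (114 CPM), p66High aggressive (95.3 CPM) and p66High parental (70.5 CPM). Only the 2 groups in the middle of that order overlapped each other.

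Asns was lower in p66High than in p66Low tumours in both states. Parental tumours gave a log2 difference of -0.69 (SE 0.17, edgeR adjusted p = 0.03), and aggressive tumours one of -0.83 (SE 0.17, adjusted p = 0.00618). Beside the parental difference, the summed hypoxia genes stood at 1123 to 1173 CPM in p66High and 2381 to 3451 CPM in p66Low parental tumours, with 4 of 12 called lower (median log2 -1.36). Between the aggressive groups the sums were 1659 to 4658 CPM in p66High and 2000 to 3369 CPM in p66Low tumours. There 1 of 12 was called higher and none lower (median log2 0.37). That median was -0.03 in p66Low selection, with none called, and 1.70 in p66High selection, with 8 called higher. The part of hypoxia in the level of Asns was not tested. In p66Low selection Asns rose by 0.57 (SE 0.17, adjusted p = 0.0404). The change of 0.43 in p66High selection did not pass (adjusted p = 0.16), although the 3 aggressive tumours lay above the 3 parental ones. The test of the difference between both selections gave -0.14 (SE 0.24, adjusted p = 0.745).

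The call in parental tumours did not hold without p66Low parental replicate 1 or 3 or without any 1 of the p66High parental tumours (adjusted p = 0.062 to 0.0938), and the log2 difference was -0.44 without p66Low parental replicate 1. That in p66Low selection held without only 4 of the 12 tumours in turn, namely p66Low parental replicate 1, p66High parental replicates 2 and 3 and p66High aggressive replicate 3, and otherwise had adjusted p-values of 0.0506 to 0.119. Without the 3 lymph-node-rich libraries, the values for Asns were -0.67 (adjusted p = 0.125) in parental tumours, -0.99 (0.0553) in aggressive tumours and 0.74 (0.162) in p66Low selection. With the tumours that share a title number summed they were -0.70 (adjusted p = 0.102), -0.85 (0.0264) and 0.59 (0.0562). Genes most like Asns over the 12 tumours were the ubiquitin ligase gene Siah2 (r = 0.96), Pdxk, which makes the active form of vitamin B6 (0.96), and the small GTPase gene Rab21 (0.95), with 0.93, 0.95 and 0.94 without the 2 tumours farthest from the median of Asns.

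Chac1 (ENSMUSG00000027313, chromosome 2, 119351229 to 119354381, plus strand) encodes an enzyme that degrades glutathione. It had low counts, 16 to 156 per tumour, all 12 of them even. In CPM it stood at 1.30, 0.649 and 0.780 CPM in p66Low parental, 0.857, 0.774 and 0.420 CPM in p66High parental, 1.56, 1.98 and 2.23 CPM in p66Low aggressive, and 1.22, 1.73 and 1.38 CPM in p66High aggressive tumours. All aggressive tumours of each line lay above all parental tumours of that line. The log2 difference was 1.08 (SE 0.35, edgeR adjusted p = 0.0532) in p66Low and 1.09 (SE 0.35, adjusted p = 0.0955) in p66High selection, so neither passed. It passed in p66Low selection in 7 of 24 alternative fits, among them DESeq2 (1.10, adjusted p = 0.024) and limma-voom (1.14, adjusted p = 0.0365). Between p66High and p66Low tumours it was -0.44 in parental and -0.43 in aggressive tumours, without passing.

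Slc7a5 and Slc3a2 encode the 2 chains of LAT1, the heterodimer that carries leucine and other large neutral amino acids into the cell in exchange for glutamine. Slc7a5 is the transporting light chain, and Slc3a2 is the heavy chain CD98, which also pairs with other light chains and with integrins. Both genes were lower in aggressive than in parental p66Low tumours.

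Slc7a5 (ENSMUSG00000040010, chromosome 8, 121881150 to 121907694, minus strand) was at 109.4, 83.4 and 99.2 CPM in p66Low parental tumours and at 35.0, 26.3 and 19.6 CPM in p66Low aggressive tumours. Levels in CPM were 68.4, 62.9 and 93.4 in p66High parental tumours and 48.8, 41.2 and 53.9 in p66High aggressive tumours. Group means fell in the order p66Low parental (97.3 CPM), p66High parental (74.9 CPM), p66High aggressive (47.97 CPM) and p66Low aggressive (27.0 CPM), and only the 2 parental groups overlapped as neighbours.

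In p66Low selection the level of Slc7a5 fell by 1.86 on the log2 scale (SE 0.22, edgeR adjusted p = 0.000476), and this call held in all 24 alternative fits. In p66High selection the difference was -0.64 (SE 0.21, adjusted p = 0.0961), which did not pass. The difference between both selections did pass, at 1.22 (SE 0.30, adjusted p = 0.0227), where 4.37% of all genes were higher and 7.99% lower in this test of the interaction. Between p66High and p66Low aggressive tumours Slc7a5 was higher by 0.84 (SE 0.21, adjusted p = 0.0157), while the parental difference was -0.38 (adjusted p = 0.306).

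The call in aggressive tumours did not hold without p66Low aggressive replicate 2 (adjusted p = 0.0571) or p66High aggressive replicate 3 (0.0718). That of the interaction did not hold without p66Low parental replicate 1 or 3, p66High parental replicate 1 or 2, p66Low aggressive replicate 2 or p66High aggressive replicate 3 (0.0541 to 0.0631). Among p66Low aggressive tumours the lowest Slc7a5 was in replicate 3, which held 1.46 CPM of lymph node stroma markers, with 1 of 10 at a count of 0, and 49.2 CPM of 14 T cell markers, against 157 and 262 CPM of the latter in replicates 1 and 2. Without the 3 lymph-node-rich libraries the log2 change in p66Low selection was -2.32 (adjusted p = 0.00213), the aggressive difference 1.31 (0.0121) and the interaction 1.87 (0.0171). With the tumours that share a title number summed the interaction did not pass (1.152, adjusted p = 0.0797). Slc7a5 lies inside the span of Gm20388, a gene model of the other strand that shares no exonic base with it.

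The genes most like Slc7a5 over the 12 tumours were the membrane protein gene Prom2 (r = 0.97), the uncharacterised gene E330009J07Rik (0.95) and Aen, an exonuclease gene that is a known p53 target (0.95). After subtraction of group means the values were 0.71, 0.47 and 0.77, and without the 2 tumours farthest from the median of Slc7a5 they were 0.97, 0.89 and 0.89.

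Slc3a2 (ENSMUSG00000010095, chromosome 19, 8706882 to 8723369, minus strand) was at 74.4, 107 and 79.3 CPM in p66Low parental, 84.9, 56.4 and 78.1 CPM in p66High parental, 49.8, 55.9 and 55.8 CPM in p66Low aggressive, and 51.6, 56.9 and 61.4 CPM in p66High aggressive tumours. All p66Low aggressive tumours lay below all p66Low parental tumours, with a log2 difference of -0.69 (SE 0.16, edgeR adjusted p = 0.0162). Without p66Low parental replicate 2 or p66Low aggressive replicate 1 it did not pass (adjusted p = 0.0501 and 0.061), nor without the 3 lymph-node-rich libraries (-0.64, adjusted p = 0.248). In p66High selection it was -0.37 (adjusted p = 0.207), and between p66High and p66Low tumours -0.25 and 0.07 in parental and aggressive tumours, without passing.

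**Figure D4:**
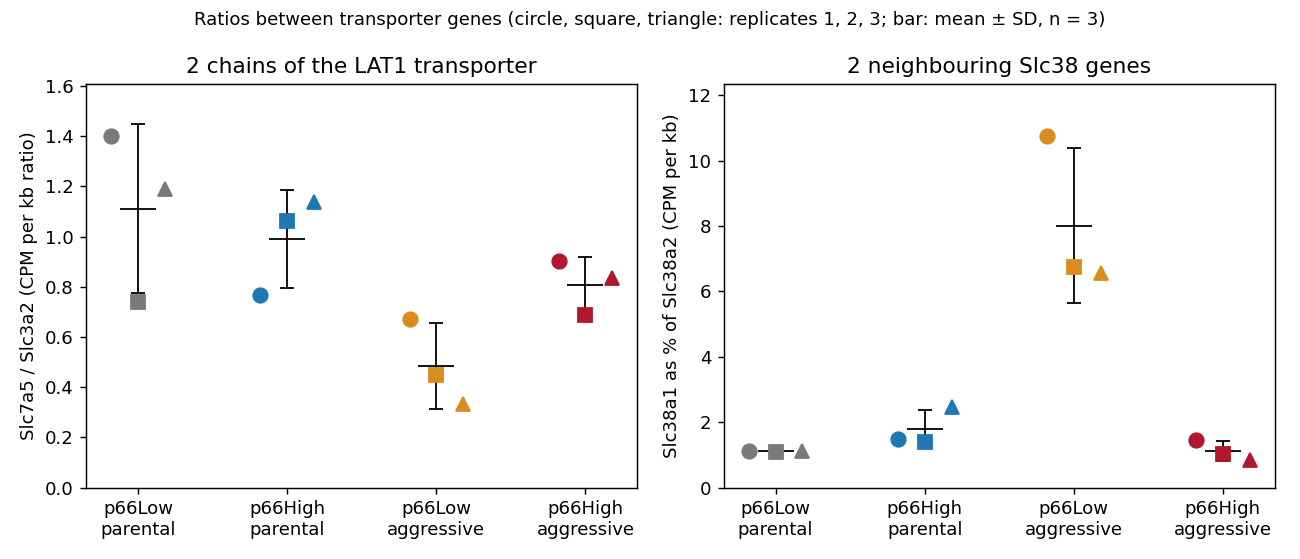
Left, ratio of Slc7a5 to Slc3a2, and right, Slc38a1 as a percent of Slc38a2, each from CPM per kb of annotated exon, in 12 tumours by group, with circles, squares and triangles for replicates 1, 2 and 3 and bars for the mean ± SD (n = 3). The p66Low aggressive tumours have ratios of 0.333 to 0.670 on the left and stand at 6.56 to 10.7% on the right, against at most 2.46% in the other 9.

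Per length, the ratio of Slc7a5 to Slc3a2 was 1.11 ± 0.336 in p66Low parental, 0.989 ± 0.196 in p66High parental, 0.483 ± 0.171 in p66Low aggressive and 0.808 ± 0.108 in p66High aggressive tumours (SD, n = 3). All 3 p66Low aggressive values, 0.670, 0.447 and 0.333, were below those of the other 9 tumours, of which the lowest was 0.689.

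Slc38a1 and Slc38a2 encode SNAT1 and SNAT2, sodium-coupled transporters of glutamine, alanine and other small neutral amino acids. Both lie on chromosome 15 on the minus strand, Slc38a1 (ENSMUSG00000023169) from 96571418 to 96642913 and Slc38a2 (ENSMUSG00000022462) from 96687392 to 96699730. Of this pair, Slc38a2 is the one that ATF4 and amino acid shortage are known to induce.

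The 3 p66Low aggressive tumours had 57.0, 37.5 and 39.9 CPM of Slc38a1. Levels were 7.51, 6.01 and 6.42 CPM in p66Low parental, 6.88, 4.19 and 9.58 CPM in p66High parental, and 8.48, 5.50 and 4.66 CPM in p66High aggressive tumours. Every p66Low aggressive tumour was above every other tumour, and the other 3 groups overlapped one another. In p66Low selection Slc38a1 rose by 2.75 on the log2 scale, or 6.72-fold (SE 0.31, edgeR adjusted p = 0.000393). It was lower by -2.84 (SE 0.31, adjusted p = 0.000251) in p66High than in p66Low aggressive tumours. Differences were 0.06 between p66High and p66Low parental tumours (adjusted p = 0.924) and -0.15 in p66High selection (adjusted p = 0.806). The interaction was -2.90 (SE 0.42, adjusted p = 0.00311).

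These 3 calls of Slc38a1 held in every alternative fit, 24 for each comparison and 23 for the interaction. T cell markers moved with them: all 14 were called higher in p66Low selection and all 14 lower in aggressive p66High than in aggressive p66Low tumours. Their sum was 49.2 to 262 CPM in p66Low aggressive tumours, 4.71 to 5.64 CPM in p66Low parental and 3.49 to 14.8 CPM in p66High aggressive tumours. Markers of B cells (8 of 8) and macrophages (6 of 10) were also called higher in p66Low selection, with sums of 3.74 to 178 CPM and 445 to 656 CPM against 1.04 to 1.32 CPM and 300.3 to 334 CPM. In p66Low aggressive replicate 3 the T cell sum was 49.2 CPM and Slc38a1 39.9 CPM, and in p66High parental replicate 3 they were 49.3 CPM and 9.58 CPM. The part of immune cells in the level of Slc38a1 was not tested. Without the 3 lymph-node-rich libraries the values were 2.58 (adjusted p = 0.00474) in p66Low selection, -2.66 (0.00452) in aggressive tumours and -2.41 (0.0343) for the interaction. Slc38a2 is among the 7 tested coding genes within 1 Mb of Slc38a1. Their median log2 change was 0.14 in p66Low selection, with 2 higher, beside a chromosome 15 median of -0.29. The part of position on the chromosome was not tested.

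Slc38a2 had the highest counts of the members, at 339.6, 285 and 290.5 CPM in p66Low parental, 235, 153 and 199.6 CPM in p66High parental, 272, 285 and 312 CPM in p66Low aggressive, and 296, 272 and 282 CPM in those called p66High aggressive. The p66High parental tumours were the 3 lowest of the 12, and the other 3 groups overlapped. Parental p66High tumours were lower than parental p66Low tumours by -0.64 on the log2 scale (SE 0.14, edgeR adjusted p = 0.016), beside -0.41 for the median of chromosome 15 with an interquartile range of -0.62 to -0.14. In p66High selection Slc38a2 rose by 0.53 (SE 0.14, adjusted p = 0.0452), beside a chromosome 15 median of 0.10. The p66High parental tumours were also the 3 lowest in summed hypoxia genes, at 1123 to 1173 CPM against 1659 to 4658 CPM, and 8 of 12 hypoxia genes were called higher in p66High selection. The differences of -0.03 in aggressive tumours and -0.07 in p66Low selection did not pass. Beside them stood chromosome 15 medians of -0.0026 and -0.29 and medians of the 12 hypoxia genes of 0.37 and -0.03. The 8 tested coding genes within 1 Mb of Slc38a2 had a median log2 difference of -0.12 between parental groups and -0.13 between aggressive groups. Their median was 0.68 in p66Low selection and 0.04 in p66High selection. Slc38a1 is among these 8 genes, and it rose by 2.75 in p66Low selection.

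The parental call of Slc38a2 did not hold without p66Low parental replicate 1 (adjusted p = 0.0666) or p66High parental replicate 3 (0.0508), and that of p66High selection held only without p66Low parental replicate 2, p66High parental replicate 1 or p66Low aggressive replicate 3 (otherwise 0.0508 to 0.121). The part of the chromosome 15 shift and of hypoxia in these differences was not tested. With the tumours that share a title number summed, the parental call held (-0.60, adjusted p = 0.0138) and that of p66High selection did not (0.49, 0.0663). Per length, Slc38a1 was at 8.01 ± 2.36% of the level of Slc38a2 in p66Low aggressive tumours, and at 1.12 ± 0.0309% in p66Low parental, 1.79 ± 0.586% in p66High parental and 1.12 ± 0.318% in p66High aggressive tumours (SD, n = 3).

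Slc1a5 (ENSMUSG00000001918, chromosome 7, 16781340 to 16798274, plus strand) encodes ASCT2, an exchanger that brings glutamine into the cell. It was at 24.5, 10.4 and 22.1 CPM in p66Low parental, 34.2, 24.4 and 20.1 CPM in p66High parental, 52.9, 41.9 and 16.6 CPM in p66Low aggressive, and 17.9, 13.6 and 15.6 CPM in those called p66High aggressive. The 2 highest tumours were p66Low aggressive replicates 1 and 2, which also held the lymph node genes, and replicate 3 of that group lay among the p66High aggressive tumours. Aggressive p66High tumours differed from aggressive p66Low tumours by -1.23 on the log2 scale (SE 0.40, edgeR adjusted p = 0.0485), and -0.06 (adjusted p = 0.961) without the 3 lymph-node-rich libraries. It did not pass with the tumours that share a title number summed (-1.25, adjusted p = 0.131). When each tumour was left out in turn, the call held in 2 of 12 fits, those without p66Low parental replicate 2 or p66Low aggressive replicate 3. The differences of 0.46 in parental tumours, 0.96 in p66Low selection and -0.74 in p66High selection did not pass (adjusted p = 0.125 to 0.523). In p66Low selection the value was 1.31 (adjusted p = 0.0172) without p66Low aggressive replicate 3 and -0.21 without the 3 libraries named.

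Among the p66Low parental tumours, 8 of the 10 members had their highest level in replicate 1 and 9 their lowest in replicate 2. The exception to the latter was Slc3a2, which was highest in replicate 2. In the other 3 groups no tumour was the highest or the lowest for more than 5 members.

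Other genes of the response were taken as lists. Their counts are to be read beside the shares of all genes called. These were 3.98% higher and 4.1% lower between parental groups, and 8.92% and 12.1% between aggressive groups. In p66Low selection they were 9.6% and 7.03%, and in p66High selection 3.11% and 2.82%. Shares of all genes at an unadjusted p under 0.05 are larger. They are at least 20.46%, 20.79%, 27.04% and 21.53% in the same order, with all 12 tumours. No such share is given for fits without the lymph-node-rich libraries. Of 26 tested targets and partners of ATF4 and CHOP, 2 were higher and 1 lower in p66High than in p66Low parental tumours (median -0.21). They were Cth, which makes cysteine (log2 -1.47, edgeR adjusted p = 0.00702), the repressor gene Jdp2 (0.72, 0.0305) and Cebpg, a partner of ATF4 (0.38, 0.0399). In p66Low selection 1 was higher, Jdp2 (1.47, adjusted p = 0.000672), and 6 were lower (median -0.13), among them the death receptor gene Tnfrsf10b (-0.996, 0.00136) and Sesn2, an inhibitor of mTORC1 (-0.95, 0.00187), both of which are also known p53 targets. In p66High against p66Low aggressive tumours 4 were higher and 1 lower (median 0.12), led by Sesn2 (1.07, adjusted p = 0.000644), Tnfrsf10b (0.96, 0.00111) and Cebpb (0.68, 0.00293). In p66High selection the oxidoreductase gene Ero1l (2.39, adjusted p = 0.0301) and the lipoprotein receptor gene Vldlr (0.77, 0.0204) were higher and Pck2 (-0.57, 0.0154) lower, and the median was 0.19. Ero1l was at 466 ± 409 CPM in p66High aggressive and 89.2 ± 3.71 CPM in p66High parental tumours (SD, n = 3), and without p66High aggressive replicate 3 its log2 change was 1.37 (adjusted p = 0.0905). It also did not pass without any 1 of the p66High parental tumours (0.0896 to 0.123). Ero1l and Vldlr are also known to respond to low oxygen, and the summed hypoxia genes stood at 1659 to 4658 CPM in p66High aggressive and 1123 to 1173 CPM in p66High parental tumours; their part in these differences was not tested.

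Of 13 genes for eIF2alpha kinases, phosphatase subunits and eIF2B, none passed between the lines in parental tumours or in p66High selection, where 4 and 3 had an unadjusted p under 0.05. In p66Low selection 2 were higher: Eif2ak2, the interferon-induced kinase PKR (log2 0.84, edgeR adjusted p = 0.0357), and Impact (0.30, 0.0466). Eif2ak2 was also lower by -0.95 (adjusted p = 0.0172) in p66High than in p66Low aggressive tumours, together with Eif2b4 (-0.39, 0.021). In the same comparison Ppp1r15b, which lies on chromosome 1, was higher (0.42, 0.0229). The part of position on that chromosome was not tested. The kinase genes Eif2ak3 (PERK) and Eif2ak4 (GCN2), named after their values were seen, did not pass in any of the 4 comparisons, with adjusted p-values of 0.243 to 0.887.

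Among 20 cytosolic aminoacyl-tRNA synthetases, which load amino acids onto tRNA, 1 was higher and 2 lower in p66High than in p66Low parental tumours: Dars (log2 0.36, edgeR adjusted p = 0.0358), Iars (-0.42, 0.0142) and Tars (-0.53, 0.04), of which Tars lies on chromosome 15 and Dars on chromosome 1. In aggressive tumours 4 were higher and 1 lower, led by Dars (0.57, 0.00182), Eprs (0.49, 0.00512) and Farsb (0.68, 0.00901), all on chromosome 1. In p66Low selection Aars rose (0.44, 0.0214) and Iars fell (-0.49, 0.00443), and none passed in p66High selection, where 1 had an unadjusted p under 0.05.

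Of 25 other tested amino acid transporters, 1 was lower in p66High than in p66Low parental tumours, the proline and tryptophan transporter gene Slc36a4 (log2 -0.61, edgeR adjusted p = 0.00774). In p66Low selection 3 were higher and 1 lower, with Slc7a6 at 1.26 (adjusted p = 0.0256), Slc7a11, the cystine transporter gene, at 1.22 (0.0386) and Slc7a7 at -0.47 (0.0277). Without the 3 lymph-node-rich libraries Slc7a6 was at 0.25 (adjusted p = 0.767) and Slc7a11 at 0.18 (0.862). In p66High against p66Low aggressive tumours 1 was higher, Slc3a1 (1.80, adjusted p = 0.00924), and 4 lower, including Slc16a10 (-1.33, 0.00344) and Slc7a11 (-1.53, 0.0122). Slc7a11 was at 7.09 ± 3.19 CPM in p66Low aggressive and 2.44 ± 0.454 CPM in p66High aggressive tumours (SD, n = 3), and without those libraries its log2 difference was -0.48 (adjusted p = 0.576). In p66High selection Slc3a1 rose (2.40, 0.00703) and Slc38a3, a glutamine transporter gene, fell (-1.64, 0.0425).

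The list of 20 chaperones and other arms of the unfolded protein response had 2 higher in p66High than in p66Low parental tumours, Atf6 on chromosome 1 (log2 0.56, edgeR adjusted p = 0.000726) and Dnajc3 (0.59, 0.00423). In aggressive tumours Atf6 was higher (0.43, 0.0014) and Edem1 (-0.53, 0.00342) and Ern1 (-0.48, 0.0483) lower. Edem1 rose in p66Low selection (0.34, 0.0342) and Dnajc3 fell in p66High selection (-0.54, 0.00954). Among 19 tested genes of mTORC1 and its amino acid sensors, Mtor was lower in p66High tumours in both states. Mtor lies on chromosome 4, and the part of position on the chromosome was not tested. Mtor differed by -0.72 (edgeR adjusted p = 0.00221) in parental and -0.90 (adjusted p = 0.000341) in aggressive tumours. It was the 1 gene of that list past the test in parental tumours, and 1 gene was higher and 3 lower in aggressive tumours, including Rheb (-0.30, 0.0228) and Rragb. In p66Low selection Rragb and Depdc5 (0.36, 0.0259) were higher and Sesn3 (-0.55, 0.021) lower, and none passed in p66High selection, where 4 had an unadjusted p under 0.05. Rragb was near the limit of detection outside p66Low aggressive tumours (1.51 ± 0.641 CPM), at 0.103 ± 0.0866 CPM in p66Low parental and 0.110 ± 0.191 CPM in p66High aggressive tumours (SD, n = 3). Its fitted log2 difference between the aggressive groups ran from -2.98 to -8.94 as single tumours were left out, without p66High aggressive replicates 2 and 1 respectively, and is no reliable size. Of the 57 calls of list genes that the naming rule took, interaction included, 27 held when each of the 12 tumours was left out in turn and 7 held in all alternative fits.

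Fewer list genes were called without the lymph-node-rich libraries, as were fewer of all genes: 3.47% against 16.6% in p66Low selection and 5.29% against 21% between the aggressive groups, with 5 against 8 residual degrees of freedom. The ATF4 and CHOP list then had 1 higher and none lower in p66Low selection, and 1 higher and 1 lower between the aggressive groups. The tRNA synthetases had none called in either comparison (2 and 5 at an unadjusted p under 0.05), nor had the other transporters (3 and 4). Of the 57 named calls 45 were lost, 38 of them with a log2 value within 1.5 times that of all 12 tumours. Between the aggressive groups Sesn2 was then at 0.84 (adjusted p = 0.0301) and Tnfrsf10b at 0.79 (0.0729), and in p66Low selection they were at -0.71 (0.0681) and -0.82 (0.0821). Beside Slc7a6 and Slc7a11, the values that moved further were those of Ppp1r15b between the aggressive groups (0.24, 0.49), Impact in p66Low selection (0.17, 0.585) and Vldlr in the interaction (0.57, 0.217). Between parental groups the log2 values in that fit were -1.46 for Cth, 0.82 for Jdp2 and 0.43 for Cebpg. They were -0.45 for Iars, 0.35 for Dars, -0.54 for Tars and -0.56 for Slc36a4. For Atf6, Dnajc3 and Mtor they were 0.57, 0.61 and -0.73. Not all of these genes passed in that fit.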

How the data were processed

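Total RNA of 12 bulk tumours was sequenced from stranded libraries after removal of ribosomal RNA, per the labels' protocols. The submitters' processing notes name Trimmomatic 0.32, STAR 2.3.0e, featureCounts 1.4.4 and mm10. The authors deposited whole-number read counts per Ensembl gene, not normalized. Annotation release, strand setting and treatment of multi-mapping reads were found in no source used here. Of counts from 10 to 50, 64.7% were even. Whether both mates of a read pair were counted was found in no source used here, so 1 count may not stand for 1 sequenced fragment.

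Counts were analysed with edgeR 4.0.16 in R 4.3.3 (filterByExpr, TMM, quasi-likelihood F-test, 4 groups, 8 residual degrees of freedom, Benjamini-Hochberg over all genes tested). The SE was computed from the fold change and F (log2 size divided by root F). Levels are CPM from TMM-scaled libraries. Of 39017 genes, 37607 matched GENCODE M21 (GRCm38), which gave coordinates and exon lengths. The correlations use log2 CPM with a prior count of 2. The fit was tested on simulated data.

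No 2 tumours of a group agreed within sampling noise (chi-square per degree of freedom at least 19.1). No label says whether each tumour is from its own mouse, so p-values measure only the spread of these samples, which may be technical in part. Members and lists were chosen with earlier results of these data known. The text names all members, up to 3 called genes per list and comparison with the smallest p, and the 3 coding genes of at least 10 CPM with the highest r to Atf4, Asns and Slc7a5. Alternatives were 3 other scalings, scaling without chromosomes 1 and 15, DESeq2 1.42.0, limma-voom (limma 3.58.1), a robust fit, 2 other filters, fits of the 6 tumours compared, summing tumours whose titles share a number, leaving out each tumour, and leaving out 3 libraries with over 20 CPM of lymph node markers. Fits of list genes under these alternatives were added after seeing the data.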

Additional observations from a re-analysis of the deposited data

Results flagged for a closer look

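The effect of selection differed between the lines by the interaction test (edgeR adjusted p under 0.05, p66High minus p66Low selection, log2 scale) for 2 members, Slc7a5 (1.22) and Slc38a1 (-2.90). Among list genes the naming rule took, it also differed for Sesn2 (1.17), Tnfrsf10b (1.04) and Vldlr (1.03) of the ATF4 and CHOP list, for Iars (0.55), for the transporter genes Slc3a1 (2.38), Slc36a4 (0.62) and Slc7a11 (-1.78), and for Dnajc3 (-0.73) and Edem1 (-0.47). Of the members, 8 did not pass this test, and 5 of 10 had an unadjusted p under 0.05. Groups of 3 are too small to look for single outlying tumours. Without the 3 lymph-node-rich libraries the ATF4 and CHOP list had no gene past this test, with 9 at an unadjusted p under 0.05, against 6 higher and 1 lower with all 12 tumours. Over all genes 1.65% passed it then, against 12.4% with all 12. Sesn2 was at 0.94 (adjusted p = 0.0768), Tnfrsf10b at 0.89 (0.15), Vldlr at 0.57 (0.217) and Slc7a11 at -0.67 (0.553) in that fit.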

How the results depend on the processing

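Calls of Slc38a1 in p66Low selection, between aggressive groups and for the interaction, and of Slc7a5 in p66Low selection, held in every alternative fit. The number of members past the threshold ranged from 0 to 3 between parental groups, 2 to 4 between aggressive groups, 2 to 5 in p66Low selection, 0 to 2 in p66High selection and 1 to 3 for the interaction when each tumour was left out. In p66High selection it was 0 with scaling by library size, without a filter, with tumours sharing a title number summed or without the 3 lymph-node-rich libraries, and 3 with DESeq2. For the interaction it was 1 with scaling by library size or summed tumours and 4 with DESeq2. Between parental groups it was 0 in fits of only the 6 tumours compared and without the 3 libraries, and 1 with summed tumours. Between aggressive groups it was 2 in both former settings, and in p66Low selection 2 without the 3 libraries. Those last fits have fewer tumours and fewer calls over all genes (1.65 to 5.29%).

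Directions changed only for differences not past the threshold. Atf4 in p66High selection was -0.0031 (RLE), -0.0059 (library size), -0.0278 (upper quartile), -0.001 (no filter), -0.003 (DESeq2), -0.0068 (voom) and -0.0095 (without the 3 libraries). Atf4 between aggressive groups was 0.041 (summed) and 0.0046 (scaling without chromosomes 1 and 15). The interaction of Chac1 was -0.0177 (RLE), -0.0936 (library size), -0.0155 (upper quartile), -0.0071 (DESeq2) and -0.4588 (without the 3 libraries). With scaling by library size Slc3a2 between aggressive groups was -0.0047 and Slc38a2 in p66Low selection 0.0312. Without the 3 libraries Slc38a1 was -0.2512 between parental groups and 0.1694 in p66High selection, Ddit3 -0.2353 between aggressive groups and -0.091 for the interaction, and in p66Low selection Slc38a2 was 0.0287 and Slc1a5 -0.2081. With each tumour left out, 26 of 600 member differences changed direction, none past the threshold. The ranges that span 0 were -0.2474 to 0.307 between parental groups for Slc38a1. Between aggressive groups they were -0.1775 to 0.0871 for Atf4, -0.1708 to 0.6031 for Ddit3, -0.0529 to 0.6576 for Trib3, -0.015 to 0.1387 for Slc3a2 and -0.0792 to 0.0306 for Slc38a2. In p66Low selection they were -0.2871 to 0.2508 for Ddit3 and -0.1364 to 0.0275 for Slc38a2, and in p66High selection -0.1489 to 0.0953 for Atf4 and -0.4512 to 0.1516 for Slc38a1. For the interaction they were -0.4161 to 0.0058 for Asns and -0.3636 to 0.2301 for Chac1. The cause was not tested. No paired analysis was possible because no title number is shared between groups. Chac1, with a count of 16 in its lowest tumour, is limited most by depth.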
